A study of Mus musculus with 95 samples.

Results

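The nuclear-encoded genes of the mitochondrial respiratory chain were followed in RNA from the nucleus accumbens of mice that had been made alcohol dependent and of their controls. The set holds the protein-coding genes whose symbols begin with Nduf, Sdha to Sdhd, Uqcr, Cox4 to Cox8 or Atp5 and whose mean over all libraries was at least 1 CPM (a gene's count divided by the library's total count and multiplied by 1000000). Of 98 such genes, 96 reached that level, out of 13181 protein-coding genes that did so and 55471 features in the table. The 2 left out were Cox8c, at a mean of 0.0079 CPM, and a further gene ID with the symbol Atp5o, at 0, while the members nearest above the limit were Cox7b2 at 1.67 CPM and Cox8b at 1.70 CPM. By complex, 38 members belong to complex I, 4 to complex II, 8 to complex III, 17 to complex IV and 16 to complex V, which makes 83 subunits. Another 12 share the prefix but are assembly factors (Ndufaf1 to Ndufaf8 and Sdhaf1 to Sdhaf4), and Atp5s shares the prefix only. Ndufa4 and Ndufa4l2 were kept with complex I by their names, although the Ndufa4 protein is now counted as part of complex IV.

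The respiratory chain sits in the inner mitochondrial membrane. Complex I (NADH dehydrogenase) and complex II (succinate dehydrogenase, also an enzyme of the TCA cycle) pass electrons to ubiquinone, complex III passes them to cytochrome c, complex IV (cytochrome c oxidase) passes them to oxygen, and complex V (ATP synthase) makes ATP from the proton gradient. Complexes I, III, IV and V combine subunits encoded in the nucleus with subunits encoded in mitochondrial DNA, while complex II is encoded in the nucleus alone. Several complex IV subunits come as a widespread isoform and a tissue-restricted one, such as the heart and muscle isoforms Cox6a2, Cox7a1 and Cox8b, the testis isoform Cox6b2 and Cox4i2, known from lung and from cells at low oxygen. Astrocytes are known for strong glycolysis and also hold an active respiratory chain.

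All 95 libraries came from mice with the transgene Tg(Aldh1l1-EGFP/Rpl10a)JD130Htz on a B6;FVB background, so every group, the controls included, carried a green fluorescent ribosomal protein driven by the promoter of the astrocyte gene Aldh1l1. Translating ribosome affinity purification (TRAP) with that tag yielded the IP libraries, and tissue RNA set aside before purification the input libraries. Dependent mice had been through CIE-2BC (chronic intermittent ethanol exposure combined with 2-bottle choice drinking, with 5 rounds of CIE), non-dependent mice had the bottle choice without CIE, and naive mice had no ethanol. There were 18 dependent, 13 non-dependent and 15 naive IP libraries, and 18 dependent, 15 non-dependent and 16 naive input libraries, of both sexes. Age is not given in the sources used here.

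An IP library held 14314236 to 27146790 counts (46 libraries) and an input library 12803108 to 23948193 counts (49 libraries). The IP carried the astrocyte markers it was made for: all 10 markers of a list were higher in IP, and their summed level was 19024 to 26270 CPM in IP libraries, against 2223 to 3762 CPM in input libraries. All 10 neuron markers were lower in IP, at a summed 1221 to 2486 CPM in IP and 3013 to 6629 CPM in input, so neuronal RNA was reduced and not absent. The labels also give each mouse a batch letter (C, G, I, J, K or L), whose nature they do not state. The libraries of mouse K15, a non-dependent male, stood apart: its IP and input deviated from their groups in opposite directions (correlation -0.336 over 9507 genes, against a median of 0.650 in the 46 mice with both libraries). Without this mouse, the members called in each comparison below changed by at most 2.

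The promoters below are chosen examples that do not stand for their classes: restricted isoforms, a widespread counterpart and a core subunit whose level is discussed later. They run from 250 bases before to 50 bases after the start of the gene and come from RefSeq on GRCm38.p6, where 78 of the 96 members were matched by symbol. Capitals mark matches, on either strand, to motifs of known factors. The core of the NRF1 site was searched as GCGCANGCG. An ETS site, bound by factors such as the GABP complex, was searched as CCGGAAG. The GC box of Sp factors was searched as GGGCGG, and the CCAAT box by those letters. The TATA box near some starts was searched as TATAAA. Cox6b2 (chr7:4753045-4753344, minus strand), the testis isoform that differed between treatments, held a GC box and 3 CCAAT boxes, and its widespread counterpart Cox6b1 (chr7:30626065-30626364, minus strand) an ETS site and 3 CCAAT boxes. Cox8b (chr7:140900397-140900696, minus strand) held a TATA box, and Sdha (chr13:74350191-74350490, minus strand), the flavoprotein of complex II, held 3 NRF1 cores and a CCAAT box.
Cox6b2: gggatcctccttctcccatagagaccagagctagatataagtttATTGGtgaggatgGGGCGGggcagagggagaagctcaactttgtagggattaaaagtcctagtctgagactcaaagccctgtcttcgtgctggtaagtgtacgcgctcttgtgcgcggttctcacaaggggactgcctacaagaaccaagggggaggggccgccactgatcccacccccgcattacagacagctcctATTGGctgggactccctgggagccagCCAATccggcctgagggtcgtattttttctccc
Cox6b1: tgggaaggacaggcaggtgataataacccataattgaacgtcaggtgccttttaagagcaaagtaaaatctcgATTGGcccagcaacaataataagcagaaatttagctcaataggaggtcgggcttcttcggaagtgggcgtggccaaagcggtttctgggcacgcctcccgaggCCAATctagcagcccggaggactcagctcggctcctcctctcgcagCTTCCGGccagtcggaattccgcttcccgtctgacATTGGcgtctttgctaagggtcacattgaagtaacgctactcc
Cox8b: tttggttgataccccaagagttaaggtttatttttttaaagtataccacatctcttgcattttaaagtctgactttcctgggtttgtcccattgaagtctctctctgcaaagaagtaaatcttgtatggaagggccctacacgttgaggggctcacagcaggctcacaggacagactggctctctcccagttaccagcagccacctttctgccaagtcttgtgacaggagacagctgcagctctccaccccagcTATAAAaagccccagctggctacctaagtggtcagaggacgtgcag
Sdha: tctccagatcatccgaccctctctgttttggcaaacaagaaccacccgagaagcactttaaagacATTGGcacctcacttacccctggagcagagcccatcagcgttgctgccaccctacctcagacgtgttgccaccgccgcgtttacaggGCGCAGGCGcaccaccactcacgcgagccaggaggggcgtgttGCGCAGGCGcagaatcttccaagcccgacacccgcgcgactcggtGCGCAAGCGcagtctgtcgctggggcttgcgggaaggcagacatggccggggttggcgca

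NRF1 is a transcription factor known for its sites in respiratory chain genes, and its core was in the promoters of 24 of 78 members (30.8%), against 14.9% of 10373 genes with 1 CPM or more. The ETS site was in 26.9% of the members and 18.9% of all genes, the YY1 site (AAGATGGC) in 12.8% and 5.01%, and the site of estrogen-related receptors (AAGGTCA) in 10.3% and 3.89%. The GC box was less frequent in the members, at 47.4% against 69.1%, while the CCAAT box (43.6% and 43.0%) and the TATA box (10.3% and 8.62%) were near the share in all genes. The NRF1 core was in 7 of 13 matched promoters of complex V, 8 of 33 of complex I and 1 of 13 of complex IV. These are matches of letters and were not tested.

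Levels per gene length spanned 3 orders of magnitude. The length was that of all annotated exons of a gene merged, which in many members exceeds the annotated principal transcript. For Cox6c it was 3567 bases against 606, and for Cox6b1 708 against 618. The order of members and of complexes below depends on this choice of length, and the order by principal transcript was not computed. In naive mice the highest member was Cox8a, the widespread isoform of a small complex IV subunit, at 2866 ± 793 CPM per kilobase of exon in IP and 2525 ± 929 in input (SD, n = 15 and 16). It was followed in IP by Cox6b1 at 1649 ± 393 and Uqcr11 at 1614 ± 447 CPM per kilobase, which differed by less than their spread. The lowest in IP was Ndufa4l2 at 1.63 ± 0.754 CPM per kilobase, and the lowest in input Cox6b2 at 2.76 ± 1.32 CPM per kilobase. The median member was at 241 CPM per kilobase in IP and 210.4 in input. By group in IP, the median was 508 CPM per kilobase for complex IV, 521 for complex III, 274 for complex I, 263 for complex V, 175 for complex II and 24.3 for the assembly factors.

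Together the 83 subunits took a median of 4.17% of the counts of an IP library (range 2.86% to 6.30%) and 4.09% of those of an input library (2.91% to 7.20%). Mitochondrially encoded transcripts took a median of 0.794% in IP and 8.77% in input. The IP share is of RNA purified through the ribosome tag and is not their level in astrocytes.

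IP and input were compared in the 46 mice with both libraries. Of the 96 members, 52 were higher in IP, 21 were lower and 23 did not pass (adjusted p at or under 0.05, edgeR's quasi-likelihood test with Benjamini-Hochberg adjustment over 21743 genes). Over all genes 33.6% were higher and 45.0% lower. The median log2 fold change was 0.12 over the members and -0.16 over all genes. Between mice, bulk RNA such as this cannot tell fewer cells of a type from less RNA per cell. Within a mouse, an IP over input value cannot tell the cell of origin of an RNA from its binding to ribosomes. The fitted values use TMM scaling, which moves an IP minus input difference by a median of 0.21 log2 relative to CPM. With library totals as the only scaling, 36 members were higher and 43 lower, where 26.8% of all genes were higher and 54.0% lower, so the split of small differences depended on the scaling. Among the members named below that passed, Uqcr11, Ndufaf7, Atp5b and Cox6b1 lost their call with library totals and Cox7a2l was called the other way.

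**Figure D1:**
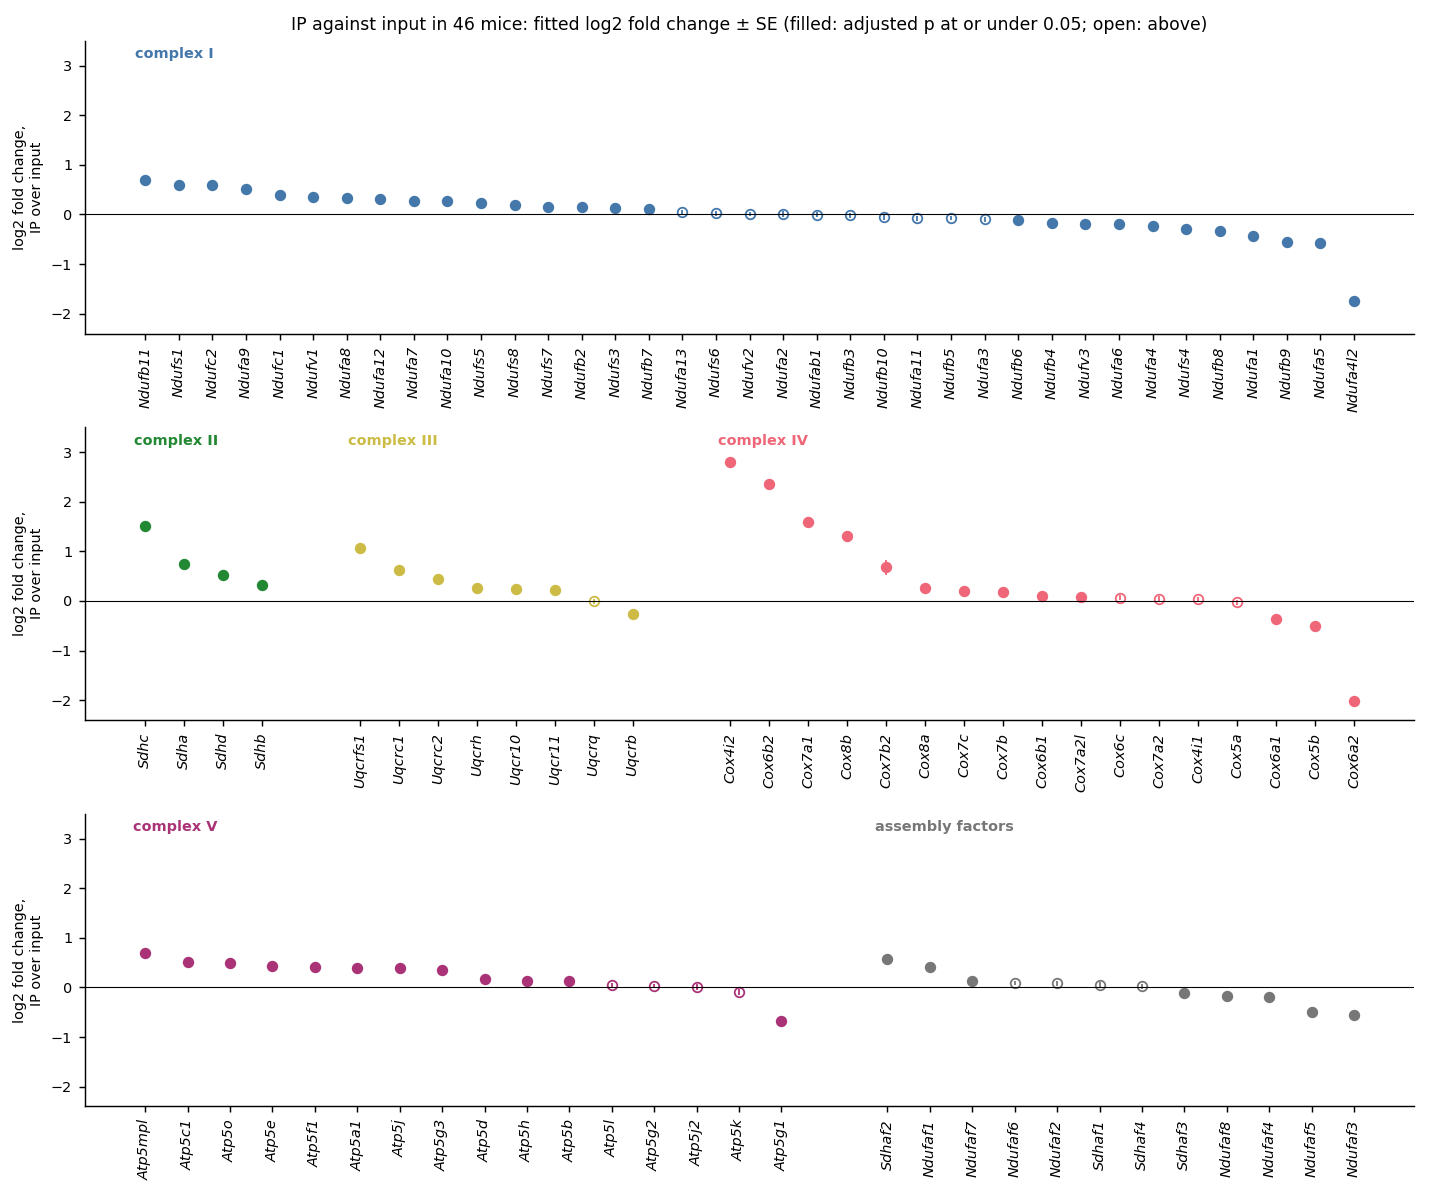
Fitted log2 fold change of IP over input (y axis) for members of the 5 complexes and assembly factors in 46 mice, ordered within each complex, with standard errors as bars; filled points passed the test and open points did not. Cox4i2 (2.80) and Cox6b2 (2.37) stand at the top and Cox6a2 (-2.02) and Ndufa4l2 (-1.75) at the bottom, while most members lie close to 0.

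Complex II was the one complex with every subunit higher in IP. Sdhc, a membrane anchor, had 205 to 499.7 CPM in IP libraries (median 374), against 57.4 to 213 CPM in input libraries (median 164). The ranges overlapped slightly, yet each of the 46 mice was higher in its IP. Its log2 fold change was 1.502 ± 0.04 (SE; adjusted p = 6.11e-42 with edgeR's quasi-likelihood test). Sdha, the catalytic flavoprotein, had 247 to 622 CPM in IP (median 373) and 136 to 423 CPM in input (median 269.7), with a log2 fold change of 0.74 ± 0.03 and 46 of 46 mice higher. The anchor Sdhd (0.51) and the iron-sulfur subunit Sdhb (0.33) were higher in 45 of 46 mice each. The median of the complex was 0.62, and 0.46 with library totals.

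In complex III, 6 of 8 subunits were higher and 1 was lower (median 0.25; 0.09 with library totals). Uqcrfs1, the Rieske iron-sulfur protein, had 258 to 537 CPM in IP (median 426) and 113 to 284 CPM in input (median 237). The ranges overlapped slightly and all 46 mice were higher in IP, by 1.06 ± 0.04 on the log2 scale (adjusted p = 1.55e-33, edgeR's quasi-likelihood test). The core proteins Uqcrc1 (0.62 ± 0.05) and Uqcrc2 (0.44 ± 0.05) were also higher, with 45 and 41 of 46 mice. Uqcrb was lower (-0.26 ± 0.05, 10 of 46 mice higher in IP). Of the other small subunits, Uqcr11 was higher by 0.21 but did not pass with library totals, and Uqcrq had a log2 fold change of -0.01 and did not pass.

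Complex I was divided. Of its 38 members 17 were higher and 11 lower, with a median of 0.01, which became -0.15 with library totals. The iron-sulfur subunit Ndufs1 had 94.8 to 156 CPM in IP (median 115) and 55.8 to 126 CPM in input (median 90.2); the ranges overlapped and 46 of 46 mice were higher (0.60 ± 0.03). The core subunit Ndufv1 was higher as well (0.36 ± 0.05, 39 of 46 mice). The accessory subunits Ndufb11 (0.70 ± 0.05) and Ndufc2 (0.60 ± 0.05) were the other members at the top, each in 44 of 46 mice. At the bottom, the accessory subunits Ndufa5 (-0.57 ± 0.05) and Ndufb9 (-0.55 ± 0.05) were higher in IP in 3 and 2 of 46 mice. Ndufa4l2, a relative of Ndufa4 known as a target of low-oxygen signalling, had 0.626 to 3.65 CPM in IP (median 1.52) and 3.16 to 11.03 CPM in input (median 6.41). Input libraries were higher with slight overlap, and in all 46 mice the IP library was the lower one (-1.75 ± 0.10). Ndufa4 itself was lower by -0.22 ± 0.05, with 14 of 46 mice higher in IP.

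In complex V, 11 of 16 members were higher and 1 lower (median 0.26; 0.09 with library totals). The gamma subunit Atp5c1 had 589.8 to 1039.9 CPM in IP (median 828.6) and 398 to 800.3 CPM in input (median 655), and all 46 mice were higher in IP (0.52 ± 0.03). The small subunit Atp5mpl (0.70 ± 0.05, 43 of 46 mice) and the stalk subunit Atp5o (0.49 ± 0.05, 42 of 46 mice) followed. Of the catalytic head, the alpha subunit Atp5a1 was higher by 0.39 ± 0.03 in 44 of 46 mice, while the beta subunit Atp5b was higher by 0.13 ± 0.03 with TMM but at -0.04 and not called with library totals. The subunits Atp5k (-0.09) and Atp5j2 (0.01) did not pass, while library totals called both lower (-0.25 and -0.15).

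The assembly factors had 3 higher, 5 lower and 4 not passed. Sdhaf2, which attaches the flavin to Sdha, was higher by 0.58 ± 0.04 in 45 of 46 mice, and the complex I factor Ndufaf1 by 0.41 ± 0.05 in 43. Ndufaf7, a methyltransferase for complex I, was higher by 0.12 with TMM and at -0.05 with library totals. Ndufaf3 had 47.8 to 108 CPM in IP (median 75.9) and 86.0 to 205 CPM in input (median 126), and Ndufaf5 had 28.9 to 66.6 CPM in IP (median 41.3) and 48.2 to 85.5 CPM in input (median 65.1). Both complex I factors were lower in IP in 46 of 46 mice although their ranges overlapped (-0.56 ± 0.04 and -0.49 ± 0.04).

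The isoform pairs differed most. Cox4i2 had 19.2 to 105 CPM in IP (median 62.0) and 4.55 to 14.3 CPM in input (median 9.98). No IP library was as low as any input library, and the log2 fold change was 2.80 ± 0.05 (adjusted p = 5.65e-48, edgeR's quasi-likelihood test). Its widespread counterpart Cox4i1 had 973 to 2202 CPM in IP and 1019 to 2610.0 CPM in input, with a log2 fold change of 0.03 that did not pass and became -0.13 and was called with library totals. Per length, Cox4i2 made up a median of 7.67% of the 2 isoforms in IP (3.14% to 13.5%), against 1.15% in input (0.683% to 2.25%). The length was that of merged exons, 788 bases for Cox4i2 and 1550 for Cox4i1, while their principal transcripts have 730 and 755 bases. The size of this share, and of the other shares per length below, depends on that choice, which was the same in both fractions.

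Cox6b2 had 8.37 to 42.7 CPM in IP (median 17.1) and 0.877 to 9.61 CPM in input (median 3.64). The ranges overlapped slightly, and 46 of 46 mice were higher in IP (2.37 ± 0.07). Its widespread counterpart Cox6b1 had 587 to 1651 CPM in IP and 614 to 1915 CPM in input and a log2 fold change of 0.11 (adjusted p = 0.0449, edgeR's quasi-likelihood test) that was -0.06 with library totals. Per length, Cox6b2 was a median of 1.16% of the pair in IP and 0.241% in input. Cox7a1 had 0.735 to 13.4 CPM in IP (median 5.01) and 0.398 to 6.17 CPM in input (median 1.83), higher in IP in 45 of 46 mice (1.59 ± 0.09), while Cox7a2 (0.04) did not pass and Cox7a2l, a factor of supercomplexes, was at 0.08. With library totals both were called lower in IP, at -0.12 and -0.08. Cox8b had 0.165 to 10.01 CPM in IP (median 1.74) and 0.133 to 3.153 CPM in input (median 0.799), on 3 to 171 counts per IP library and 3 to 50 per input library. It was higher in IP in 43 of 46 mice (1.31 ± 0.11), and Cox8a was higher by 0.27 ± 0.05.

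Cox7b2, another low member, was higher in IP by 0.68 ± 0.15 in 36 of 46 mice. Cox6a2 went the other way. It had 2.14 to 9.90 CPM in IP (median 4.79) and 10.4 to 46.004 CPM in input (median 23.3), so the groups did not overlap, and the log2 fold change was -2.02 ± 0.07 (adjusted p = 3.24e-35, edgeR's quasi-likelihood test). Its share of the Cox6a pair per length was 0.542% in IP and 1.64% in input (medians). Its counterpart Cox6a1 was lower by -0.37 ± 0.05, and Cox5b by -0.50 ± 0.05, whereas Cox5a (-0.03) did not pass. The heart and muscle isoforms therefore did not move as one group: Cox7a1 and Cox8b were higher in IP and Cox6a2 was lower. The 3 genes Atp5g1, Atp5g2 and Atp5g3 encode the same mature ring subunit of ATP synthase with different targeting sequences. Atp5g1 had 279 to 772 CPM in IP (median 454) and 521 to 1658 CPM in input (median 828.6) and was lower in all 46 mice (-0.68 ± 0.05). Of Atp5g1 and Atp5g3 together, per length, Atp5g1 was 10.2% to 14.5% in IP and 18.6% to 25.9% in input, with no overlap between the fractions. Atp5g3 was higher (0.34 ± 0.04, 38 of 46 mice) and Atp5g2 did not pass (0.02), though library totals put it at -0.14 and called it. Reads shared by these close copies, or by members and their processed pseudogenes, could not be told apart with certainty, since the counting method was not given in the sources used here.

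**Figure D2:**
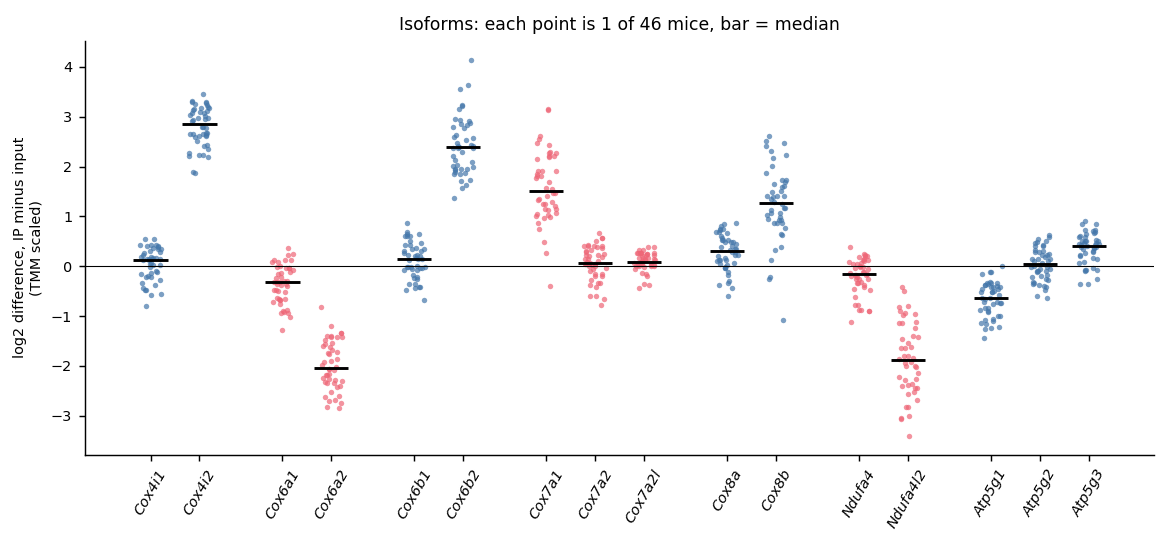
Log2 difference between the IP and input library of a mouse (y axis, TMM scaled) for the isoform sets, 1 point per mouse (46 mice), bar at the median. Cox4i2, Cox6b2, Cox7a1 and Cox8b lie well above their widespread counterparts, and Cox6a2 and Ndufa4l2 well below theirs.

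Neighbouring pathways were read from listed genes. Of 15 TCA cycle genes 13 were higher in IP and none lower by the same edgeR test, 13 having an unadjusted p under 0.05, with a median log2 fold change of 0.46 led by the succinate-CoA ligase subunit Suclg2 (2.97) and citrate synthase Cs (1.36). Of 10 electron carriers and neighbours 7 were higher and 2 lower; the electron transfer flavoprotein genes Etfa (2.34), Etfb (1.70) and Etfdh (1.78) were among the higher, and Atpif1, the inhibitor of ATP synthase, was lower (-1.27). Of 13 regulators of mitochondrial biogenesis 6 were higher and 3 lower, with the coactivators Ppargc1a at 1.15 and Ppargc1b at -0.82. Other assembly and biogenesis factors were divided (11 higher and 15 lower of 33 tested), as were the 77 mitochondrial ribosomal proteins tested (33 higher and 26 lower, median 0.02). All 13 mitochondrially encoded messenger RNAs were lower in IP, by -4.20 to -2.91. As the IP holds RNA purified through tagged Rpl10a, these values do not measure mitochondrial transcript levels in astrocytes.

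Directions within batches were less even for small differences. Of the 52 members higher in IP, 35 had a positive mean difference in each of batches I, J, K and L, and of the 21 lower, 9 had a negative one in each. The 57 members with a principal transcript under 1000 bases had a median difference of 0.02 in batch I, 0.04 in J, -0.19 in K and 0.44 in L. The 21 members of 1500 bases or more had 0.25 in I, 0.26 in J, 0.46 in K and 0.32 in L. Short members were thus the lower ones in I, J and K and the higher ones in L.

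Libraries of a fraction also differed by batch. A batch effect (edgeR's quasi-likelihood F test on the batch terms) was called for 90 of 96 members in IP, where 46.6% of all genes were called, and for 89 of 96 in input, where 52.1% were. The subunit share had a median of 5.51% of counts in batch J and 5.16% in K, against 3.25% in I and 3.79% in L, in IP. In input it was 5.56% in J and 5.91% in K, against 3.52% in I and 3.51% in L. Batches C and G, with 1 dependent mouse each, had 6.05% and 5.78% in IP and 6.38% and 5.02% in input. In IP all J libraries (5.04% to 6.12%) lay above all I libraries (2.86% to 3.64%), and in K the IP library of mouse K15 (3.48%) lay below the 8 others (from 4.72%).

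**Figure D3:**
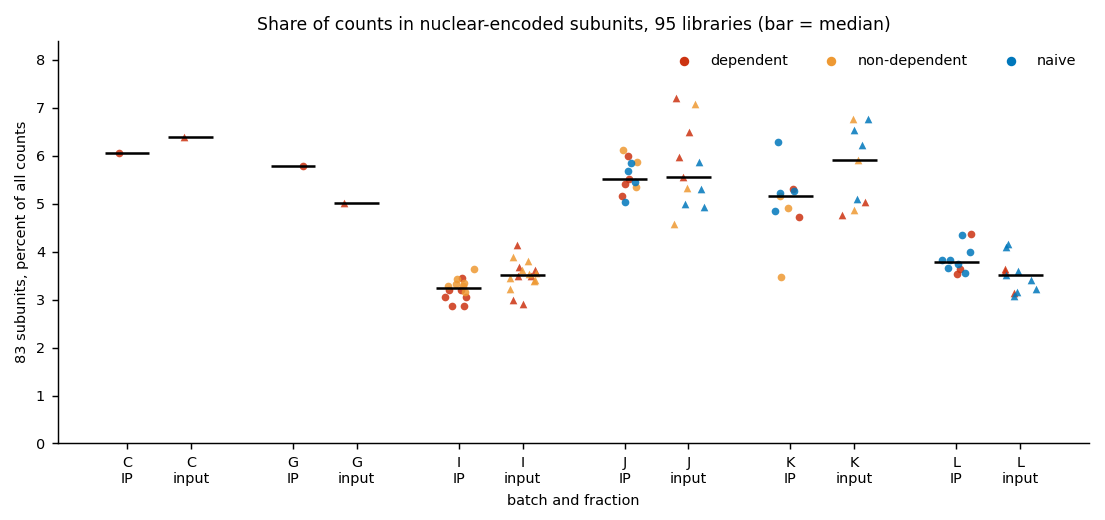
Percent of all counts taken by the 83 subunits (y axis) in each of 95 libraries, by batch and fraction (x axis; circles IP, triangles input), coloured by treatment, bar at the median. Batches J and K sit near 5% to 6% and I and L near 3% to 4% in both fractions; C and G hold 1 dependent mouse each, I has no naive mice and L no non-dependent mice. In IP of batch I, the 7 dependent mice (2.86% to 3.45%) lie mostly below the 7 non-dependent mice (3.154% to 3.64%), with overlap.

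Short members were higher in batch J than in batch I, and several long core subunits were lower. Cox8a, with a principal transcript of 550 bases, had 1975 to 2812 CPM in IP in batch J (median 2309.5) and 809.5 to 1267 CPM in batch I (median 1015). Atp5b had 583 to 882 CPM in IP in batch J (median 668) and 1121 to 1688 CPM in batch I (median 1597). Neither gene's J and I libraries overlapped, and the directions were opposite. The batch test had the smallest p in IP for the following members, given with their fitted J minus I: Ndufa5 (1.495), Ndufb3 (1.29), Atp5j (1.26), Ndufs6 (1.27), Ndufc2 (1.43), Ndufv3 (1.03), Ndufab1 (1.26) and Cox6c (1.51). In input these were Sdha (-0.78), Sdhaf4 (1.23), Atp5g3 (1.25), Ndufa4 (1.43), Ndufa6 (1.27), Ndufc2 (1.37), Ndufb3 (1.29) and Atp5l (1.396). Long core subunits were lower in J: Atp5b by -0.96, Uqcrc1 by -0.87, Uqcrc2 by -0.84, Sdha by -0.77 and Ndufv1 by -0.72 in IP.

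The differences of batches J and K from batch I followed transcript length in both fractions, and that of batch L did so in IP but not in input. Of the 91 members with an annotated principal transcript, 57 (62.6%) were shorter than 1000 bases, against 7.32% of all protein-coding genes with 1 CPM or more. All 57 had a positive fitted difference in J and in K against I in both fractions, with a median of 1.27 in J in each fraction. Other protein-coding genes of that length had a median of 0.84 in IP and 0.96 in input, so other short transcripts differed in the same direction. For members of 1500 bases or more the median was -0.13 in IP and -0.12 in input, against -0.28 and -0.23 for other genes. Across the 91 members, the rank correlation of length with J minus I was -0.71 in IP and -0.69 in input, as a description, since members share their libraries. For L minus I it was -0.63 in IP, where short members had a median of 0.37 and those of 1500 bases or more -0.02. In input it was 0.12, with medians of -0.04 and -0.01. The same members' IP over input log2 fold change had a rank correlation of 0.07 with length.

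**Figure D4:**
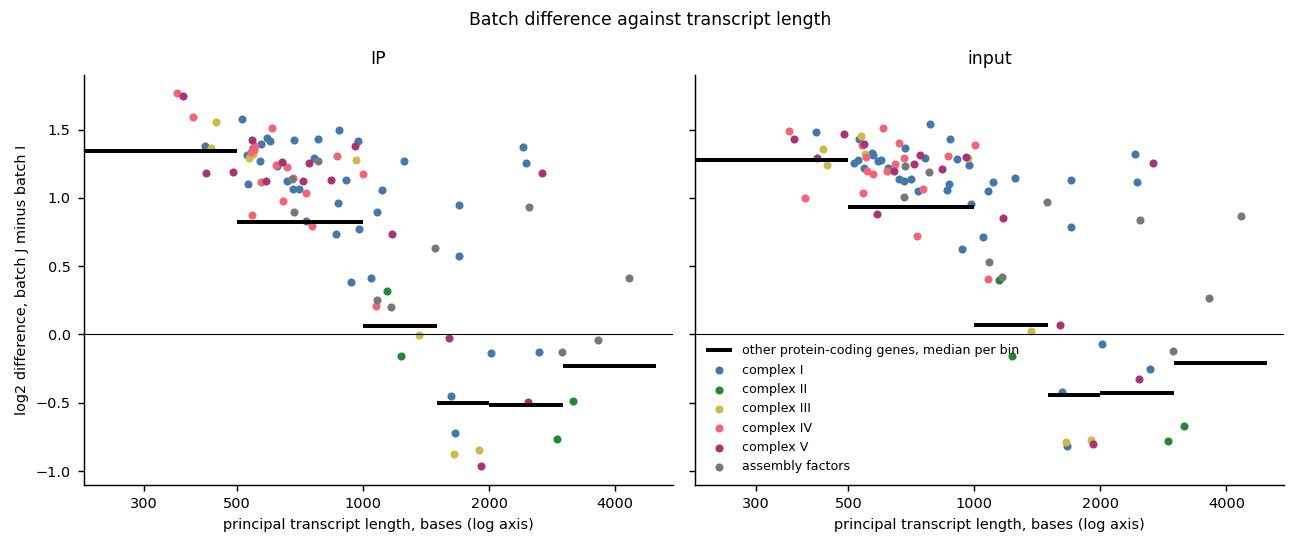
Fitted log2 difference of batch J minus batch I (y axis) against principal transcript length in bases (x axis, log scale) for members coloured by complex, in IP (left) and input (right), with black bars for the median of other protein-coding genes in bins of length. Members under 1000 bases all lie above 0, with a median of 1.27 in each fraction, and those of 1500 bases or more have medians of -0.13 in IP and -0.12 in input.

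Once means of batch and group were removed, pairs of members under 1000 bases still moved together from library to library, with a median correlation of 0.860 over 44 IP libraries and 0.932 over 47 input libraries. These medians are over 1378 pairs, fewer than all 57 members of that length would form, so some short members were not included. Pairs of a short and a long member had a median of -0.05 in IP and -0.07 in input. Among short members the complex made little difference: 0.867 within a complex and 0.853 between complexes in IP, and 0.941 and 0.929 in input. RNA quality is not given in the sources used here, and its part in the length pattern was not tested.

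Treatments were compared in batches I to L with batch as a term. Dependent mice differed from naive mice in 3 members in IP, with 1 higher and 2 lower, where 4.67% of all genes were called. All 3 are restricted isoforms of complex IV, whereas Cox4i2 and Cox6a2, also restricted, did not pass. The median log2 fold change of the members was -0.09, against 0.00 over all genes, and 84 of 96 had a negative value. Short members moved together from library to library, so these 84 are not separate observations. All genes were not matched to the members in transcript length. Of the 3 called, Cox6b2 was the higher one. By complex the median was -0.10 for I, -0.06 for II, -0.10 for III, -0.09 for IV and -0.10 for V. With library totals these medians were -0.07, -0.03, -0.06, -0.06 and -0.07 in the same order. In this edgeR fit with TMM scaling, no member of complexes I, II, III or V passed, though Uqcrb of complex III did under alternatives given below.

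Cox6b2 had 8.71 to 42.7 CPM in IP of the 16 dependent mice (median 17.5) and 8.37 to 25.2 CPM in the 15 naive mice (median 15.8). The groups overlapped across batches but not within them. In batch J dependent mice had 30.1 to 42.7 CPM and naive mice 18.7 to 25.2 CPM. In K dependent mice had 29.2 to 32.3 CPM and naive mice 14.1 to 21.6 CPM, and in L dependent mice had 17.3 to 18.9 CPM and naive mice 8.37 to 15.8 CPM. Batch I, with no naive mouse, had 8.71 to 16.9 CPM in dependent and 10.3 to 18.5 CPM in non-dependent mice, which overlapped. The fitted log2 fold change was 0.52 ± 0.12 (adjusted p = 0.00699, edgeR's quasi-likelihood test). In input it was 0.75 ± 0.18 (adjusted p = 0.0179 with the same test), from 2.76 to 9.61 CPM in 16 dependent mice (median 3.996) and 0.877 to 5.57 CPM in 16 naive mice (median 2.69). It was the only member called in input, where 2.38% of all genes were. In input the dependent and naive mice of batches J and K did not overlap and those of L did. With no batch term in batches I to L the difference did not pass in either fraction (0.34 in IP and 0.66 in input), nor did it with no batch term and the dependent mice of batches C and G added (0.41 in IP and 0.74 in input). In batches J and K alone it passed in IP (0.63) and not in input (0.85).

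Cox8b had 0.165 to 3.72 CPM in IP of dependent mice (median 1.02) and 0.738 to 10.01 CPM in naive mice (median 2.62), with overlapping groups. The log2 fold change was -1.20 ± 0.30 (adjusted p = 0.0111, edgeR's quasi-likelihood test). The batch differences in mean log2(CPM + 0.1) were -1.27 in J, -1.90 in K and -0.22 in L. In input the value was -0.995 ± 0.33 and did not pass (adjusted p = 0.105 with edgeR). Cox7a1 had 0.735 to 9.15 CPM in IP of dependent mice (median 4.06) and 3.63 to 13.4 CPM in naive mice (median 8.27). These groups overlapped too, the log2 fold change was -0.78 ± 0.23 (adjusted p = 0.0368, edgeR's quasi-likelihood test), and in input it was -0.52 ± 0.28 and did not pass. The pooled dependent mice include 7 of batch I, which has no naive mice, at a median of 1.88 CPM of Cox7a1 in IP. Within batches the dependent and naive medians in IP were 8.59 and 10.03 CPM in J, 4.18 and 10.2 in K, and 4.10 and 5.48 in L. Cox7a1 lost its call in batches J and K alone (-0.84). With no batch term in batches I to L it passed (-0.96), and it did not once the dependent mice of batches C and G were added as well (-0.76). In input Cox8b passed with no batch term in batches I to L (-1.27).

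**Figure D5:**
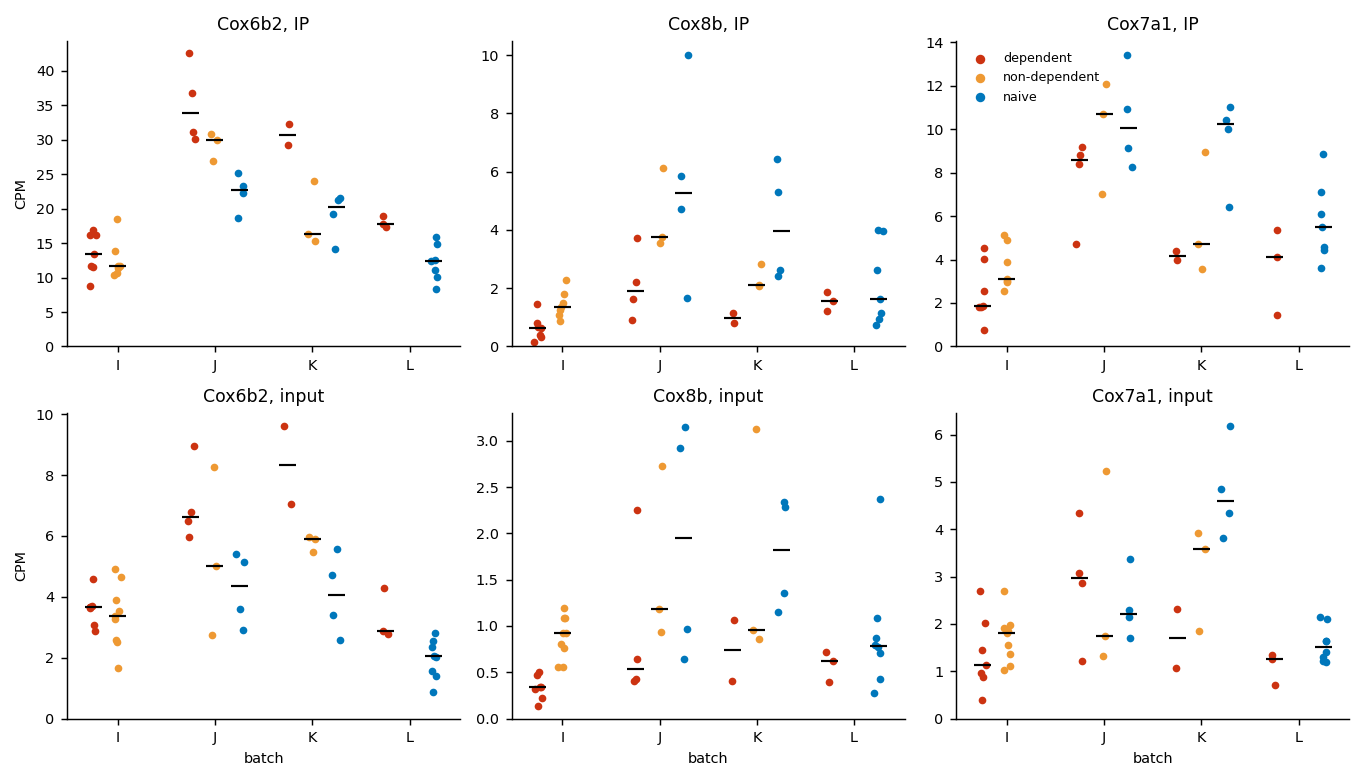
CPM (y axis) of Cox6b2, Cox8b and Cox7a1 in IP (top) and input (bottom) by batch (x axis), 1 point per library, with dependent, non-dependent and naive mice from left to right and bars at the median. In IP the dependent mice lie above the naive mice for Cox6b2 in each of batches J, K and L; naive mice are missing from batch I and non-dependent mice from batch L.

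Markers of cell types were measured beside these 3 genes. In IP, 3 of 10 astrocyte markers were higher in dependent than in naive mice, with a summed level of 20595 to 26270 CPM in dependent and 19367 to 26031 CPM in naive mice. The 3 were Gfap (0.98), Gjb6 (0.72) and Fgfr3 (0.26). No neuron marker of 10 passed (1221 to 2486 CPM in dependent and 1303 to 1915 CPM in naive mice). Of 10 markers each, 1 of medium spiny neurons (1399 to 4298 CPM in dependent and 2381 to 4321 CPM in naive mice) and 1 of oligodendrocytes (1145 to 2523 CPM in dependent and 1332 to 2481 CPM in naive mice) were lower. None passed of 10 microglia markers, which had a median log2 fold change of 0.41 (191 to 991 CPM in dependent and 200.3 to 298 CPM in naive mice). None passed of 10 endothelial markers (45.0 to 179 CPM in dependent and 67.4 to 117 CPM in naive mice) or of 5 tested choroid plexus and ependyma markers, whose median was 0.99 (9.39 to 79.2 CPM in dependent and 1.70 to 42.2 CPM in naive mice). Of 4 red blood cell genes 1 was lower. With the mean of the neuron markers as a covariate all 3 members were called, at 0.54 for Cox6b2, -1.09 for Cox8b and -0.79 for Cox7a1. The part of the other cell types in these differences was not tested.

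A further alternative, added after the length pattern had been seen, took the difference between short and long non-member genes in each library as a covariate. It left Cox6b2 higher and made 16 members lower in dependent than in naive mice in IP, where 2.64% of all genes were lower with this covariate. Of the 16, Cox8b and Cox7a1 were already called lower without it, and 14 were added. In input 6 members were lower, where 1.67% of all genes were. The 16 were small changes apart from Cox8b (-1.18) and Cox7a1 (-0.78), from -0.13 for Cox5b to -0.27 for Uqcrb. Uqcrb had 285 to 762 CPM in IP of dependent mice (median 455) and 467 to 1013 CPM in naive mice (median 699.9). These ranges pool the batches and are not a measure of the treatment difference. In IP, 7 of the dependent mice were in batch I, which has no naive mice, and the fitted J minus I of Uqcrb was 1.29. Without the covariate, and with batch as a term, its log2 fold change was -0.28 ± 0.09 (adjusted p = 0.0510, edgeR's quasi-likelihood test). Uqcrb was also called lower with no filter (-0.28), limma voom (-0.29), DESeq2 (-0.29), library totals (-0.25) and without mouse K15 (-0.26). It was not called with RLE scaling, mitochondrial transcripts removed, the neuron marker covariate, batches J and K alone or no batch term. DESeq2 called Atp5f1 of complex V lower as well (-0.22).

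Of the neighbouring pathways, edgeR called no gene in dependent against naive mice in IP among the TCA cycle (4 of 15 at an unadjusted p under 0.05), electron carriers (4 of 10), biogenesis regulators (1 of 13), other assembly factors (2 of 33) or mitochondrially encoded genes (6 of 13, median log2 fold change -0.21). Of 77 mitochondrial ribosomal proteins 2 were higher and 1 lower.

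Other treatment comparisons called no member with edgeR's quasi-likelihood test, TMM scaling and no added covariate. Dependent against non-dependent mice gave none in IP (1.54% of all genes called; 7 members at an unadjusted p under 0.05) and none in input (0.355%; 2 members). DESeq2 called Sdha (-0.22) and Cox8b (-0.96) lower in IP in this comparison. With edgeR, library totals called Sdha lower (-0.26). The length covariate called Sdha (-0.17), Ndufb8 (-0.18) and Cox8b (-1.12) lower. Non-dependent against naive mice gave none in IP (0.44%; 10 members; median log2 fold change -0.11) and none in input (0.122%; 1 member), and DESeq2 and limma voom called none either. Naive and non-dependent mice met in batches J and K only. The comparisons share their dependent, non-dependent and naive mice, so the values are given side by side only: in IP, Cox8b had -1.20 in dependent against naive, -0.96 in dependent against non-dependent and -0.25 in non-dependent against naive mice. Cox6b2 had 0.52, 0.29 and 0.23 in the same order.

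Whether a treatment difference was larger in IP than in input was tested as an interaction. No member passed for dependent against naive mice (0.356% of all genes called; 3 members at an unadjusted p under 0.05) or for dependent against non-dependent mice (0.0923%; 3 members), and the fit without the mouse block called none. The interaction was -0.31 ± 0.19 for Cox6b2, -0.32 ± 0.30 for Cox8b and -0.33 ± 0.24 for Cox7a1 in dependent against naive mice, and none of the 3 passed. Female against male mice gave no member in IP (0.0501% of all genes called; 2 members at an unadjusted p under 0.05) or in input (0.0508%; 4 members) with edgeR, and limma voom called none in either.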

How the data were processed

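RNA of nucleus accumbens punches was measured as TRAP IP and as input, with libraries made by the Takara SMART-Seq PLUS kit per the labels' protocols. The authors deposited 1 table of raw counts per gene (55471 features, 95 libraries, whole numbers). Per the submitters' processing notes, the tools were FastQC 0.11.9, Trimmomatic 0.39 and STAR 2.7.10b with GRCm38; for the counting program, its annotation and strand setting, nothing is stated (not given in the sources used here). Groups follow the labels. The members and gene lists were chosen with earlier results of these data known.

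From the counts, edgeR 4.0.16 (R 4.3.3) fitted quasi-likelihood models with TMM scaling, filterByExpr (minimum count 10, total 15) and robust dispersion, with Benjamini-Hochberg adjustment over all genes tested and a threshold of 0.05. IP was compared with input with the mouse as a block: both libraries of a mouse come from the same punch, and their deviations from group means correlated by over 0.1 in 45 of 46 mice. Treatments, sexes and batches were compared within IP and within input over batches I to L, with a mean per treatment and sex plus batch. Printed CPM are unscaled. All 96 members passed the filters. The fits were checked on simulated data. Gene positions, types and lengths came from GENCODE M21 (55144 features matched). P-values measure the spread between these mice, and with the mouse as a block the spread of their IP minus input differences. Libraries held 12803108 to 27146790 counts, which limits the precision of members near 1 CPM most.

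Named were the 3 highest and 3 lowest members of each complex in IP against input, the called members (at most 8 per direction, by adjusted p), core subunits and isoform sets; 1 core subunit is not reported here. Alternatives were RLE scaling, library totals, no filter, mitochondrial transcripts removed, limma 3.58.1 voom, DESeq2 1.42.0, no replicate block, naive mice only, no batch term (in batches I to L, and with batches C and G added), batches J and K, neuron marker and length covariates, and leaving out mouse K15. Library totals, the length covariate, the K15 alternative and no batch term in batches I to L alone were chosen after seeing the data.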

Additional observations from a re-analysis of the deposited data

Results flagged for a closer look

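The subunit share and the CPM of Cox6b2, Cox8b and Cox7a1 were examined in 60 groups of 4 to 10 libraries of the same batch and fraction, taken whole and by treatment. Of these, 4 held a library whose gap to its nearest neighbour was large relative to the range of its group (Dixon's 95% criterion, which chance meets in about 1 group in 20). Cox6b2 was 18.5 CPM in the IP of a non-dependent mouse of batch I, the highest of 7, with the next at 13.8 CPM. Cox8b was 2.26 CPM in the input of a dependent mouse of batch J, the highest of 4, with the next at 0.643 CPM. Cox8b was also 2.37 CPM in the input of a naive mouse of batch L, the highest of 8, with the next at 1.09 CPM. Cox7a1 was 4.71 CPM in the IP of a dependent mouse of batch J, the lowest of 4, with the next at 8.395 CPM.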

How the results depend on the processing

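In IP against input, library totals made 36 members higher and 43 lower and shifted all genes by a median of -0.17. Of all members called with TMM, 9 changed sign, and 1 of them was called the other way. Among the members named for this comparison, Ndufaf7 (-0.053), Cox7a2l (-0.084), Atp5b (-0.037) and Cox6b1 (-0.056) had been called and changed sign. Cox4i1 (-0.13), Cox7a2 (-0.12), Atp5j2 (-0.15) and Atp5g2 (-0.14) also changed sign and had not been called with TMM. With naive mice only, 52 were higher and 13 lower. The fit with no replicate block had 50 higher and 21 lower. In dependent against naive mice in IP, the members lower numbered 4 with DESeq2, 1 with no batch term and the mice of batches C and G added, 1 in batches J and K and 16 with the length covariate, and library totals called 2 higher. With no batch term in batches I to L, 2 were lower and 1 higher; the higher one was Ndufaf4 (0.28) and no longer Cox6b2. In input, no batch term (with or without batches C and G) and batches J and K gave 0 higher (edgeR), no batch term in batches I to L 1 lower, the length covariate 6 lower and library totals 1 lower. In dependent against non-dependent mice in IP, DESeq2 called 2 lower, the length covariate 3 and library totals 1. The cause was not tested.

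Over all genes, dependent against naive mice in IP gave 933 calls, 1447 with no filter and 235 in batches J and K; in input it gave 469, 707 with DESeq2 and 17 in J and K. Dependent against non-dependent mice gave 308 in IP (0 to 684 over the alternatives) and 70 in input (0 to 119). Non-dependent against naive mice gave 88 in IP (15 to 481) and 24 in input (8 to 77). The 77 and 20 interaction calls became 12 and 0 with no replicate block, and the 20 became 31 without mouse K15. Sex calls were 10 in each fraction, and 96 in IP and 25 in input with no filter. No paired analysis was possible within a fraction because each mouse gave 1 library there. At 3 to 171 counts per library, Cox8b is the member most limited by depth among those called between treatments.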
